A study of Mus musculus with 285 samples.

Results

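Cytosolic ribosomal protein genes were taken as all genes whose symbol begins with Rpl or Rps and a digit, without the Rps6k kinase genes, present on 80% or more of the arrays. The rule found 45 genes and kept 44 of the 11622 named genes, 31 with a large subunit symbol (Rpl) and 13 with a small subunit symbol (Rps). The gene left out was Rps12, whose single probe had a value on 143 of 285 arrays (50.2%). A further 4 probes of kept genes fell short, at 80 and 208 arrays for Rps18, 140 for Rpl10 and 220 for Rps29, and the nearest of the 168 probes used had values on all 285 arrays. By symbol, 36 of the 44 are ribosomal protein genes (26 large, 10 small) and 6 are annotated pseudogenes. The other two are Rpl10l, a retrogene copy of Rpl10, and Rps19bp1, whose product binds Rps19 in the nucleolus and is no part of the ribosome.

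The muscles came from 285 F2 mice, females and males, from intercrosses, in both directions, between C57BL/6J and C3H/HeJ, both inbred. All ate 4% fat chow up to 8 weeks of age and afterwards, for 12 weeks, Western food of 42% fat plus 0.15% cholesterol. Tissue was taken at 20 weeks, following 12 hours without food. Cy3-labelled RNA of each mouse was set against a Cy5-labelled pool made of equal parts of all RNA samples. Which muscle was taken is not in the labels, and a mouse's genotype, sex and direction of cross are likewise missing there, so the mice form 1 group, and the number in the title, 51 to 362, is the only order studied. Values are given as log2 of mouse over pool. The labels state neither the log base nor the sign. Base 10 and mouse over pool were inferred from Y-linked genes, whose mean ratio over a pool of all mice should lie near 1: it was 0.796 for Eif2s3y, against 23.2 with the sign turned. Base 2 gave 0.751, so the base is less certain than the sign, and under it all log2 values would shrink by one common factor. Pairs of arrays correlated between -0.745 and 0.801, with 2.48% of pairs below -0.3. A ratio to the pool gives no level, so levels were compared neither between genes nor with muscle markers, and in bulk tissue fewer cells of a type and less RNA per cell cannot be told apart.

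The cytosolic ribosome joins a small subunit, which holds the mRNA and reads its codons, to a large subunit, which forms the peptide bond. Each subunit takes 1 copy of nearly every protein, and cells as a rule make these proteins in matched amounts. In mammals, ribosomal protein mRNAs start with an uninterrupted stretch of pyrimidines, the 5′ terminal oligopyrimidine tract, through which mTOR and the RNA-binding protein Larp1 control their translation. In skeletal muscle, ribosome number is tied to the capacity for protein synthesis and growth.

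Start regions of 9 genes are shown because this pyrimidine stretch is known of ribosomal protein mRNAs. Rpl7a and Rpl15, whose runs are among the longest, are named only here, and the others recur in the results. Long and short runs are both shown. Each is read 5′ to 3′ and holds 40 bases of RefSeq's GRCm38.p6, 20 before the annotated start and 20 from it, with the longest pyrimidine run near the start in capitals.
Rpl7a: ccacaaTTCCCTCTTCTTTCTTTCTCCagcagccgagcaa
Rpl34: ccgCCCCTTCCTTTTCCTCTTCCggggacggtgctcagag
Rpl15: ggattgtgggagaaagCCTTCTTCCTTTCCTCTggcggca
Rpl14: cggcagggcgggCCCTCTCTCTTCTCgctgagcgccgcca
Rpl41: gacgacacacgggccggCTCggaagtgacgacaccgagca
Rps18: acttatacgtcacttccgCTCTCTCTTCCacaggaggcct
Rps6: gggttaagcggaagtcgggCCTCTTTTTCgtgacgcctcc
Rps26: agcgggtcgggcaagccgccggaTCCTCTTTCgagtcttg
Rps3: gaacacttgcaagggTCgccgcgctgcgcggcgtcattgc
The windows are chr2:26910787-26910826 for Rpl7a and chr9:120571497-120571536 for Rpl14 on the plus strand. On the minus strand they are chr3:130730318-130730357 for Rpl34, chr14:18270967-18271006 for Rpl15, chr10:128549149-128549188 for Rpl41, chr17:33955646-33955685 for Rps18, chr4:86857348-86857387 for Rps6, chr10:128626487-128626526 for Rps26 and chr7:99483690-99483729 for Rps3. The run spans 21 bases in Rpl7a, 20 in Rpl34, 17 in Rpl15 and 14 in Rpl14, but 3 in Rpl41 and 2 in Rps3. Starts used in these muscles were not examined, so a short run at the annotated start does not show that an mRNA lacks the tract.

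Of the 44 genes, 30 had a promoter entry in RefSeq, 250 bases before to 50 after the annotated start. A pyrimidine run of at least 8 bases touching the 10 bases on either side of the start was present in 13 of the 30 (43.3%), against 15.8% of the 27025 genes with an entry. Some of these runs, such as that of Rpl13, ended before the annotated start. The letters CCGGAAG, the core of ETS family sites, stood on either strand of the 300 bases in 12 (40%), against 9.93% of all entries, counting a gene when any of its annotated starts held them. Their other strand, CTTCCGG, can overlap a pyrimidine run. GGGCGG, bound by SP factors, was present in 17 (56.7%) against 38.2%, and the E-box CACGTG, bound by Myc, in 4 (13.3%) against 8.09%. TATAAA was present in 2 (6.67%) against 15.7%, and AAGATGGC, the core of YY1 sites, in 1 (3.33%) against 3.19%. These matches describe letters in a window and not bound sites.

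The family varied moderately among the mice. The SD over 285 mice had a median of 0.182 over the 44 genes, against 0.21 over all named genes. Rps3, at the mRNA entry of the small subunit, varied most, with a log2 ratio of -1.15 in the lowest mouse, -0.26 at the median and 0.87 in the highest (SD 0.378). Its ratio lay over 2-fold from the pool in 11 mice, more than for any other gene of the family. Rps3 is an average of 2 unlike probes. Their SDs were 0.319 and 0.645, and their r with the other members 0.827 and 0.325, so its spread rests largely on the second probe. Rpl12, near the base of the stalk that recruits elongation factors, ranged over -1.06, -0.27 and 0.82 (lowest, median and highest; SD 0.332). Rpl38, whose loss in mice alters translation of Hox mRNAs, ranged over -0.83, -0.19 and 1.03 (SD 0.319). Rpl22, which mouse T cell development requires, and Rps26, at the mRNA exit, had SDs of 0.315 and 0.308. At the other end stood Rpl19 (SD 0.0802), Rpl7 (0.0853), Rpl29 (0.0935), Rpl17 (0.11) and Rps6 (0.119), the last being the S6 kinase substrate. Several of these are averages over probes that did not move together: the 20 probes of Rpl29 had a median pairwise r of 0.102, the 4 of Rpl7 of -0.0788 and the 6 of Rps6 of -0.143. The 7 probes of Rpl41, the shortest ribosomal protein, had one of 0.968, and the 7 of Rpl12 one of 0.925. A small SD of an average over discordant probes is therefore a property of the average. Probe sequences were not used here, so signal shared with pseudogenes and copies could not be separated.

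The mean ratio lay below the pool for 37 of the 44 genes, where 44.03% of all named genes did so. The median of the gene means was -0.0716, and 9.998% of named genes had a mean below that. Per mouse, the mean over the 44 genes was -0.346 in the lowest mouse (number 301), -0.0894 at the median and 0.332 in the highest (number 134). In mouse 186 all 44 genes lay above the pool, and in mouse 304 only 1 did. The genes highest in mouse 134 include Rpl12, Rpl14, Rpl22, Rpl23a, Rpl27, Rpl37a, Rps7, Rps24, Rps26 and Rps29. All values on the array of mouse 134 spread widely, with an SD of 0.524 against a median of 0.29 over the 285 arrays.

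Large and small subunit genes moved together from mouse to mouse. The mean of the 31 large subunit genes ranged from -0.352 to 0.372 with a median of -0.0882, and that of the 13 small subunit genes from -0.354 to 0.277 with a median of -0.0986. The 2 means correlated with r = 0.909 and rho = 0.886 over 285 mice, a description of values that share arrays and pool. Their difference, large minus small, had an SD of 0.0531, where the large mean itself had 0.127 and the small mean 0.115. It ran from -0.142 in mouse 59 to 0.192 in mouse 141 with a median of 0.00491. The difference had an r of -0.0545 with the mouse number, and its slope of -0.00323 per 100 numbers changed sign when members were summarised by their median (0.00512) or when only the 36 ribosomal protein genes were used (0.0154).

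**Figure D1:**
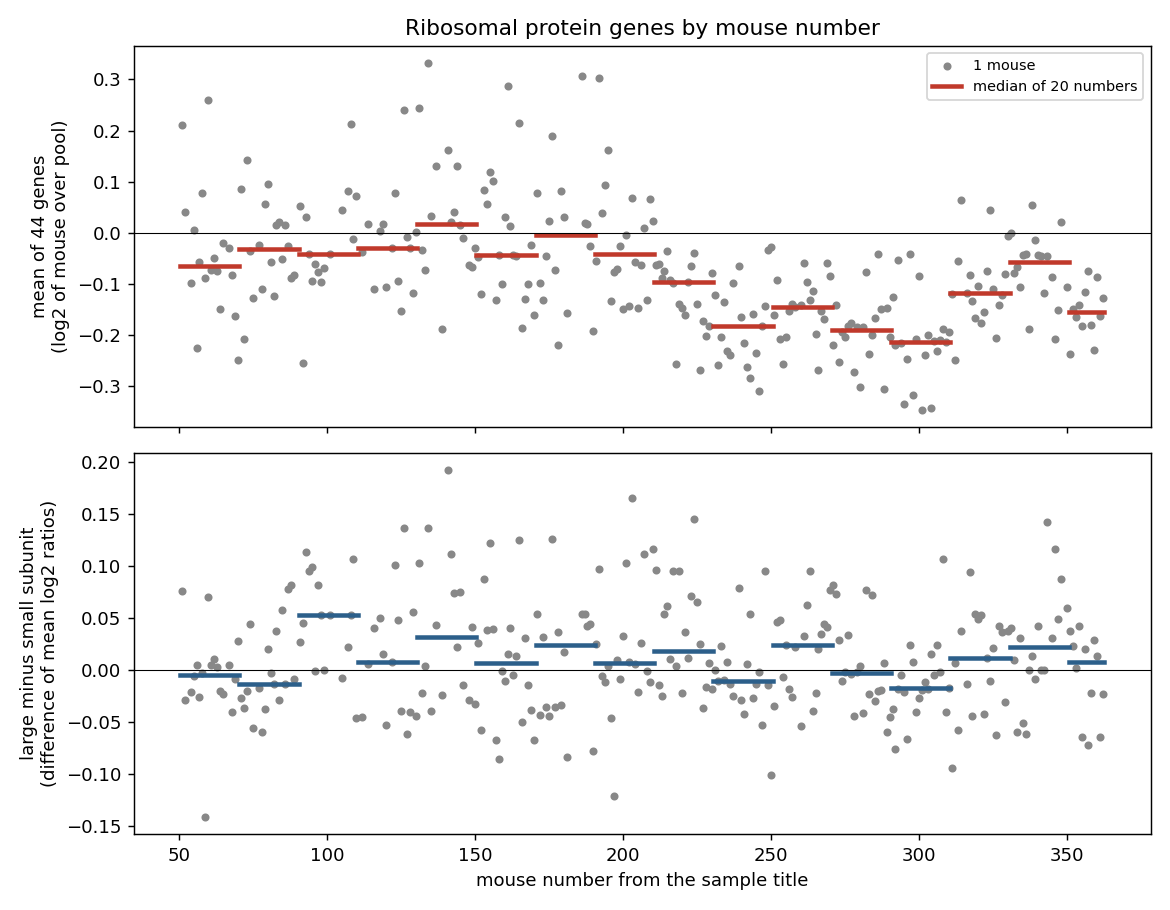
Each point is 1 of 285 mice, placed by its number on the horizontal axis. The upper panel shows the mean log2 ratio of the 44 genes and the lower panel the large minus small subunit difference, with a bar for the median of each 20 numbers. Upper bars lie between -0.065 and 0.018 up to number 210 and between -0.213 and -0.057 beyond it, while the lower bars stay between -0.018 and 0.053.

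Gene by gene, the pairwise correlation over mice had a median r of 0.375 over the 946 pairs, against -0.00524 over pairs of all named genes. It was 0.436 within the large subunit, 0.252 within the small subunit and 0.344 between subunits. With the 36 ribosomal protein genes alone these medians were 0.484, 0.446 and 0.473, so the lower value within the small subunit came with the pseudogenes and Rps19bp1. The first component of the 44 genes held 44.5% of their variance, the second 11.0%. Removing the first array-wide component, computed from genes outside the family, left a median pairwise r of 0.193, and removing 5 left 0.14.

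The gene most like the rest was Rpl12, with r = 0.923 between it and the mean of the other members. It was followed by Rpl8 (0.872), Rpl41 (0.867), Rps15 (0.855), whose tail reaches the decoding site, and Rps7 (0.847). The least alike were Rps2-ps9 (-0.322), Rps24-ps2 (-0.0888), Rpl12-ps1 (0.0246), Rpl3 (0.129), which lines the peptidyl transferase centre, and Rpl5 (0.168), a carrier of the 5S RNA. Of these 5, 3 are pseudogenes. Copies did not all follow their parents: Rpl10l correlated with Rpl10 at 0.943 and Rpl10a-ps2 with Rpl10a at 0.777, but Rpl21-ps15 with Rpl21 at 0.441, Rps24-ps2 with Rps24 at 0.254, Rpl12-ps1 with Rpl12 at 0.0339 and Rps2-ps9 with Rps2 at -0.0574. The value under the name Rpl10l cannot be assigned to that copy, since its probes may bind Rpl10 mRNA.

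A tight trio crossed the subunits. Rpl14 correlated with Rps29 at 0.931 and with Rps26 at 0.896, and Rps26 with Rps29 at 0.869, each measured by a single probe. Rps26 was at -1.16 in the lowest mouse, -0.22 at the median and 1.24 in the highest, and Rpl14 at -1.15, -0.22 and 1.1. For all 3 genes the lowest mouse was number 92 and the highest number 134, whose array had an SD of 0.524. A second group joined Rpl12, Rpl22, Rpl41, Rps15 and Rps7, with Rpl12 and Rpl22 at 0.883 and Rpl12 and Rps7 at 0.869.

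**Figure D2:**
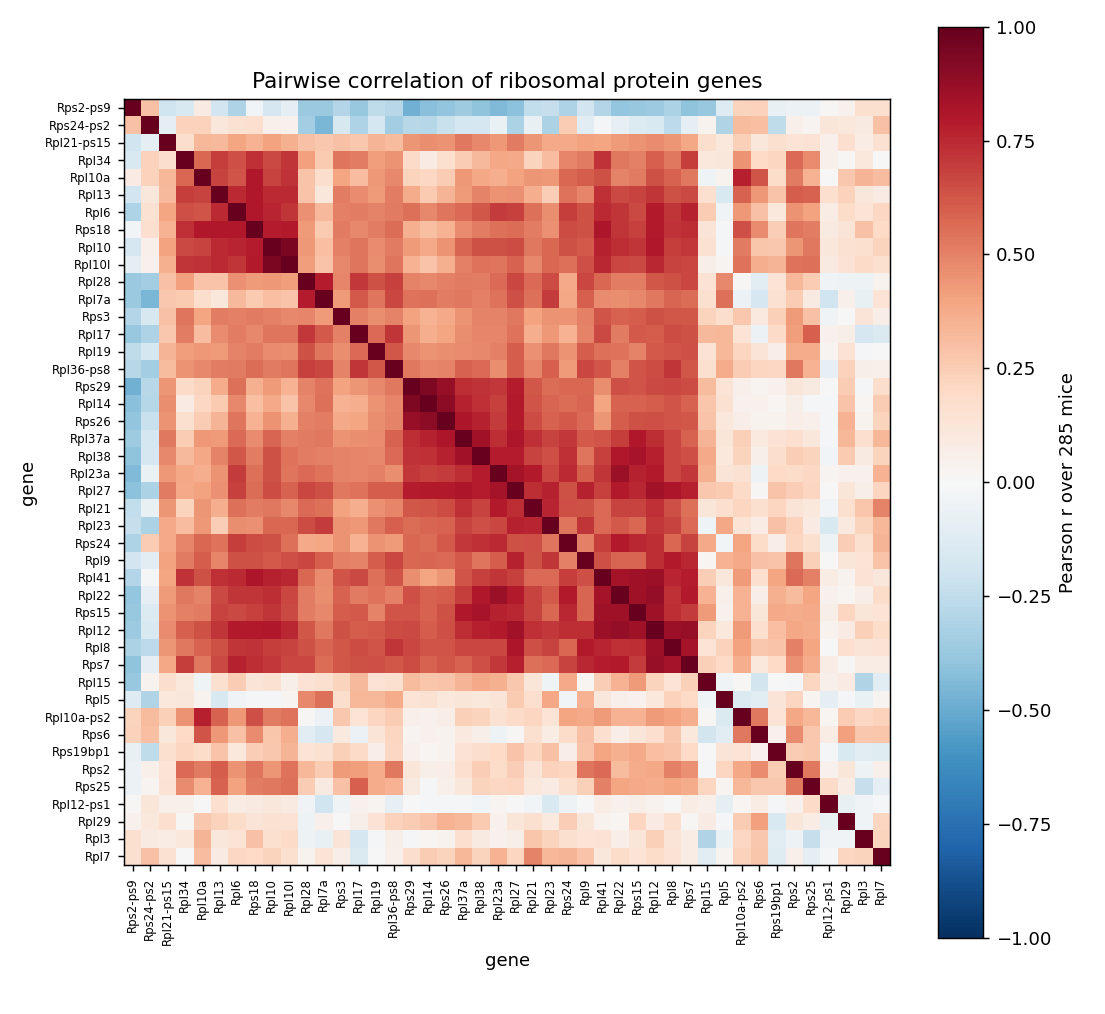
Colour gives Pearson r over 285 mice for each pair of the 44 genes on both axes, ordered by clustering. Most of the square is red, the trio Rpl14, Rps26 and Rps29 forms a dark block (0.869 to 0.931), and Rps2-ps9 at the edge is blue against most genes, down to -0.484 with Rps29.

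Along the mouse number, most of the family fell. limma with Benjamini-Hochberg adjustment over all 21512 features (named genes and unnamed probes) called 33 of the 44 genes lower with rising number and 5 higher. In the same fit 38.7% of all features fell and 25.4% rose, so such calls are common here (64.1% in all), and the share falling in the family, 75%, stands beside that background. The median slope was -0.0553 per 100 numbers in the family and -0.0119 over all features. Of the large subunit genes 24 of 31 fell and 3 rose, and of the small subunit genes 9 of 13 fell and 2 rose. Requiring also an r of at least 0.3 in size left 23 genes, all falling, against 27.4% of all features in either direction. These p-values take the mice as exchangeable, and the labels do not say whether neighbouring numbers share a litter or day.

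Rps7 gave one of the clearest differences. Its ratio was -0.37, -0.0521 and 0.47 (lowest, median, highest) in the 138 mice numbered 51 to 210, -0.54, -0.32 and -0.0266 in the 98 numbered 211 to 310, and -0.44, -0.27 and -0.0583 in the 49 numbered 311 to 362. Every mouse numbered above 210 lay below the pool, while the ranges overlap with the lower mice of numbers 51 to 210. The slope was -0.119 ± 0.00961 per 100 numbers (SE; limma adjusted p = 7.91e-27).

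Rpl41 was at -0.36, 0.0167 and 0.5 in numbers 51 to 210, at -0.71, -0.32 and 0.0356 in 211 to 310, and at -0.53, -0.25 and 0.16 in 311 to 362. In the last of these ranges 48 of 49 mice were below the pool, and in the first 65 of 138. Its slope was -0.155 ± 0.0117 (limma adjusted p = 6.27e-30), and all 7 of its probes had a negative slope.

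Rps18, in the head of the small subunit, had medians of -0.0169, -0.34 and -0.16 in the same 3 ranges, and all 98 mice of numbers 211 to 310 lay below the pool. Its slope over all mice was -0.111 ± 0.0126 (limma adjusted p = 1.48e-15). Rps3 had medians of -0.0248, -0.41 and -0.42, with the steepest slope of the family, -0.195 ± 0.0222 (limma adjusted p = 1.56e-15). Its ranges overlap widely, from -0.89 to 0.87 in numbers 51 to 210 and from -1.15 to 0.14 in 211 to 310.

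Rpl22 (slope -0.187), Rpl12 (-0.185), Rpl34 (-0.143), Rpl13 (-0.108), Rps15 (-0.103) and Rpl10l (-0.102) complete the 10 steepest falls, and their limma adjusted p lay between 3.1e-26 and 1.54e-14. For Rps15, 4 of 5 probes had a negative slope and the probe of largest SD one of 0.0842 per 100 numbers. All 7 probes of Rpl12, all 7 of Rps7 and all 13 of Rps2 had a negative slope, as did 132 of 168 probes over the family.

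The 5 genes that rose along the number were Rps2-ps9 (0.085 ± 0.0182), Rpl3 (0.0568 ± 0.0146), Rps24-ps2 (0.0372 ± 0.0113), Rpl7 (0.0247 ± 0.00557) and Rpl29 (0.0232 ± 0.00614), with limma adjusted p from 1.32e-05 to 0.00233. Single probes were divided: 12 of the 20 of Rpl29 had a positive slope and 8 a negative one, and the 4 of Rpl7 were split 2 and 2. The probe of Rpl29 with the largest SD had a slope of 0.0014. So 2 of the 5 are pseudogenes and 3 are proteins of the large subunit, and no ribosomal protein gene of the small subunit was called rising. Rpl14, Rpl21, Rpl5, Rpl12-ps1, Rps26 and Rps6 were not called, with slopes between -0.0265 and 0.0104. Of the 6 probes averaged for Rps6, 4 had a positive slope and 2 a negative one.

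**Figure D3:**
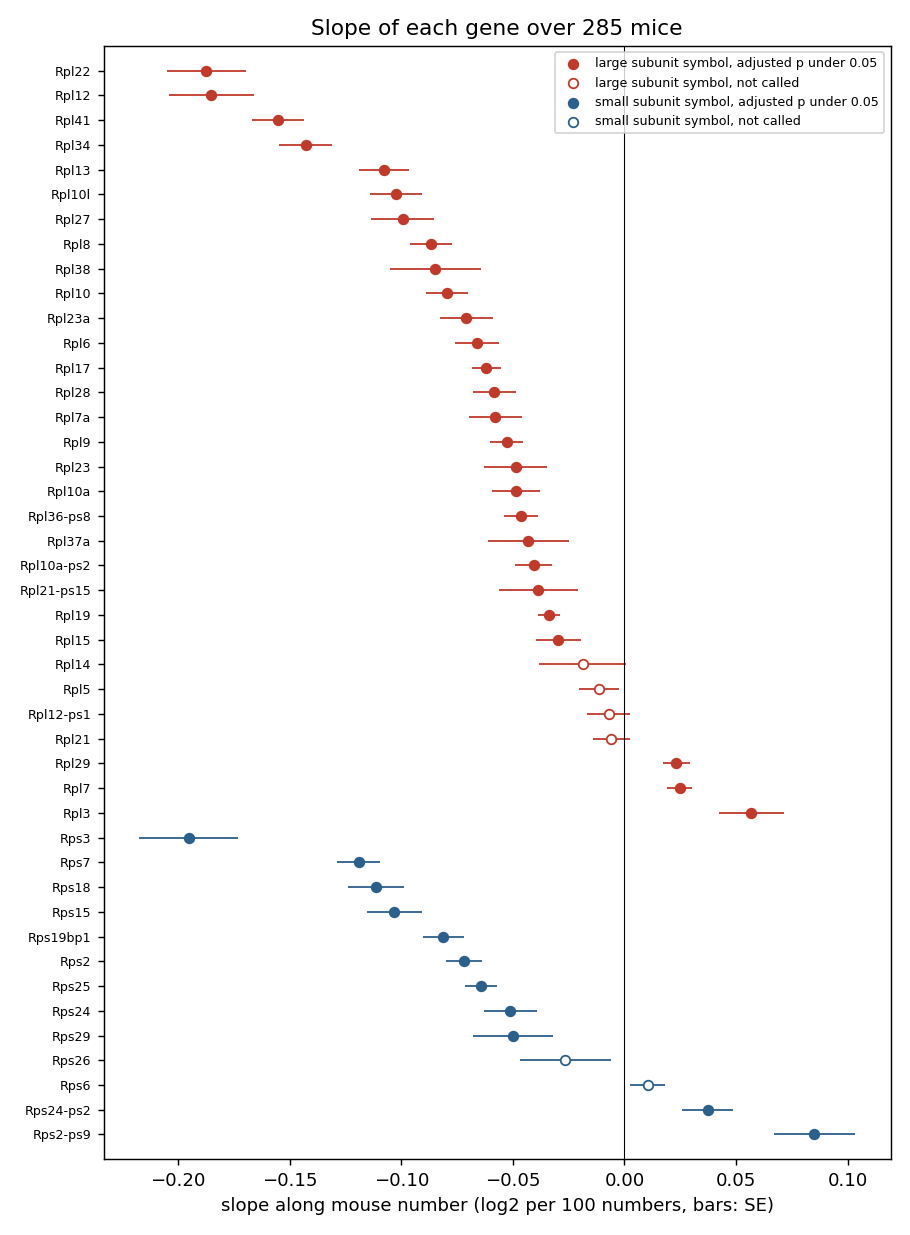
Slope of each gene in log2 per 100 mouse numbers over 285 mice, with bars of 1 SE, large subunit genes (red) above small subunit genes (blue). Filled points passed limma at an adjusted p under 0.05: most lie left of 0, down to -0.195 for Rps3, and 5 lie right of it, up to 0.085 for Rps2-ps9.

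The fall was uneven along the number. The median of the family mean lay between -0.0652 and 0.0177 in windows of 20 numbers up to 210, between -0.213 and -0.0969 from 211 to 310, lowest in 291 to 310, and at -0.118, -0.0571 and -0.156 in the last 3 windows. The family mean lay above the pool in 57 of 138 mice numbered 51 to 210, in 0 of 98 numbered 211 to 310 and in 4 of 49 numbered 311 to 362. These limits were set with the windows in view, and the difference between ranges was not tested. Within numbers 51 to 210 limma called 2 genes falling and 5 rising, against 12.4% and 15.5% of all features. Within 211 to 362 it called 9 falling and 12 rising, against 26.3% and 15.9%. The upper range holds both the lowest windows and the higher ones after them.

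Single genes went their own way inside the ranges. Rps19bp1 fell in both, with -0.0764 per 100 numbers in 51 to 210 and -0.123 in 211 to 362 (limma adjusted p = 0.0143 and 6.47e-05), and Rpl3 rose in both, by 0.102 and 0.223 (0.0111 and 2.07e-05). Rpl5, Rpl9, Rpl28 and Rpl36-ps8 rose in the lower range and fell in the upper one. Rpl5, which is not called over all mice, had 0.0907 in the lower and -0.114 in the upper range (limma adjusted p = 0.000531 and 8.22e-05). Rps24, a protein of the small subunit mutated in some human Diamond-Blackfan anaemia, did the reverse, with -0.0825 and 0.173 (0.0367 and 4.86e-07).

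Array-wide features moved along with the family. The first component of all genes outside it, 15.2% of their variance, correlated with the family mean at r = 0.793, and the array median at 0.488. The large and small subunit means, pseudogenes included, had an r of 0.813 and 0.689 with this component, and their difference one of 0.46. The component's median per mouse (in hundredths) was 3.13 in numbers 51 to 210, -3.74 in 211 to 310 and -4.91 in 311 to 362. With it as a covariate limma called 14 genes falling and 14 rising along the number, against 27.4% and 27.3% of all features. The genes that still fell included Rpl34 (-0.112), Rps3 (-0.0826), Rpl13 (-0.0775) and Rpl41 (-0.0774), and those that now rose were led by the trio Rpl14 (0.149), Rps26 (0.144) and Rps29 (0.105). With 5 components, 2 fell and 12 rose, against 8.15% and 10.2%. What the array-wide component stands for was not tested, and with the number as the only order, handling, litter and biology along it cannot be told apart.

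Other genes of protein synthesis went both ways along the number, in a fit where 38.7% of all features fell and 25.4% rose. Of 5 further ribosome genes outside the symbol rule, 4 fell along the number and 1 rose: Fau, a fusion of a ubiquitin-like protein with Rps30, fell (-0.222), as did the stalk proteins Rplp2 (-0.0989) and Rplp1 (-0.0547) and Rpsa (-0.0419), and the stalk base Rplp0 rose (0.0381; limma adjusted p at most 0.000616). Of 23 genes listed as translation factors or as mRNAs with a pyrimidine tract, 9 fell and 10 rose. The tract itself was not examined for these genes. The falls were led by Eef1b2, an exchange factor of elongation factor 1 (-0.145), Eif3m (-0.0978) and Eif3h (-0.0962). The rises were led by Eif4a2, a helicase of initiation (0.182), the poly(A)-binding protein gene Pabpc1 (0.165) and Naca, of the nascent chain complex (0.155). Of 23 ribosome assembly genes 9 fell and 10 rose, with Rrs1 (-0.19), the polymerase subunit gene Polr1d (-0.103) and Nop58 (-0.0952) at one end and Polr1a (0.131), the nucleophosmin gene Npm1 (0.0866) and Tsr1 (0.066) at the other. Of 12 regulators 3 fell and 7 rose, led by the translation repressor gene Eif4ebp2 (0.293), Myc (0.279) and the mTOR brake Tsc2 (0.141), with falls of Tsc1 (-0.0726), Sesn2 (-0.0552) and Rps6kb2 (-0.0176).

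The named genes outside the family whose pattern over 285 mice was most like the mean z value of its members were Eef1b2 (r = 0.882), Pdcd5 (0.873), the prefoldin gene Pfdn5 (0.868), Ly6g6c (0.866) and Ssr4 (0.849), a subunit of the translocon-associated complex. Erh, Olfr1208, Fau, Ccdc114 and Reg3d followed at 0.812 to 0.817. The most opposed were Phlpp1 (-0.844), a phosphatase of Akt, Usp24 (-0.828), Dhx35 (-0.809), Pcnx (-0.806) and Svil (-0.801), and then Zfp423, Sde2, Fam222b, Rhbdf1 and Dnmbp down to -0.786. These values share arrays and pool and are given as a description.

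Most of the family rose with the oxidative phosphorylation score. The score averaged z values of the 4 of 15 listed genes that were measured, Cox4i1, Cox7a2, Cox8b and Ndufs1, so it leans on cytochrome oxidase. Their r with the family mean was 0.646, 0.634, 0.731 and 0.0435 in that order, so Ndufs1 did not share the relation. limma called 36 genes of the family rising with the score and 4 falling, against 43.2% and 35% of all features. Of the large subunit genes 27 of 31 rose and 1 fell, and of the small 9 of 13 rose and 3 fell. The large minus small difference had an r of 0.39 with the score. The trio led, with slopes per SD of the score of 0.207 ± 0.0125 for Rpl14, 0.202 ± 0.0138 for Rps26 and 0.189 ± 0.0118 for Rps29, beside Rpl38 at 0.201 ± 0.0147 (limma adjusted p at most 7.02e-32). Rps2-ps9 (-0.115), Rpl3 (-0.048), Rps24-ps2 (-0.0421) and Rps6 (-0.0194) fell.

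Inside the number ranges limma called 35 rising and 2 falling in 51 to 210 (background 40% and 36.1%) and 19 rising and 8 falling in 211 to 362 (32.4% and 22.4%), so the calls in the upper range lay nearer to the background. The score correlated at r = 0.831 with the first array-wide component. With that component as a covariate 10 genes rose and 13 fell (background 20% and 19.4%): Rpl14 at 0.162, Rps26 at 0.128, Rpl37a at 0.105 and Rps29 at 0.0974 still rose, and Rpl13 (-0.105), Rpl12 (-0.096) and Rps18 (-0.0939) led the falls.

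**Figure D4:**
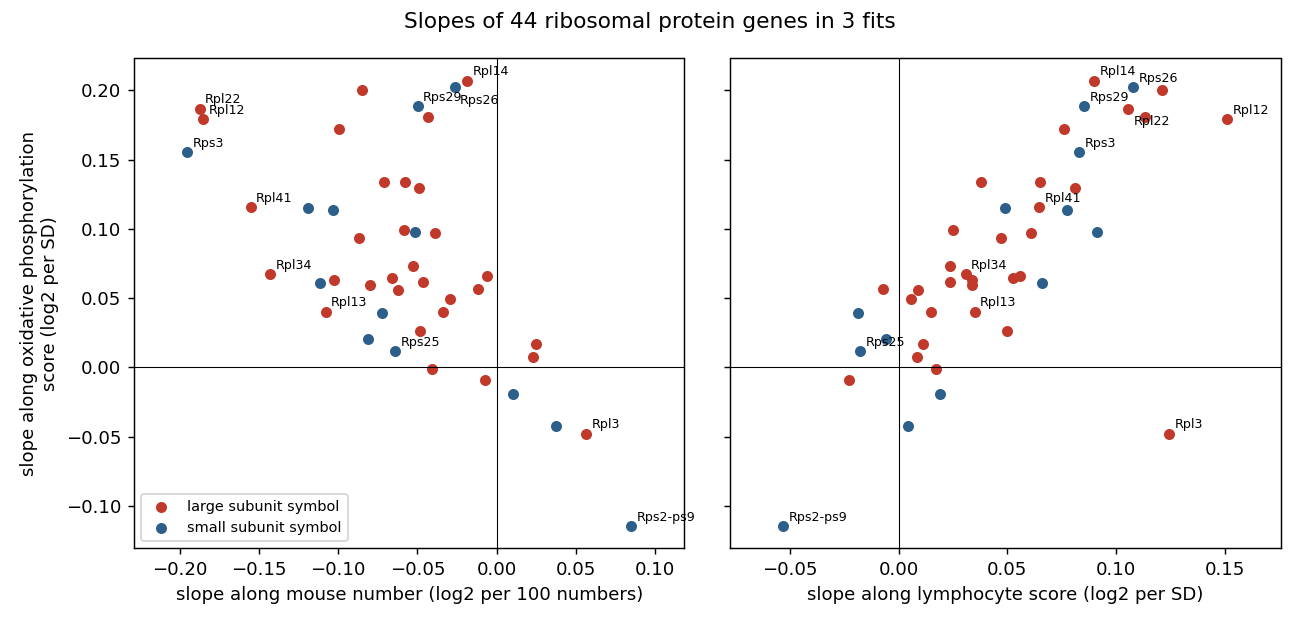
Each point is 1 of the 44 genes, large subunit in red and small in blue. Slope along the oxidative phosphorylation score (log2 per SD, vertical) is drawn against slope along the mouse number (left, log2 per 100 numbers) and along the lymphocyte score (right, log2 per SD). Rpl14, Rps26 and Rps29 sit at the top (0.189 to 0.207) with slopes of -0.0498 to -0.0186 along the number, and Rpl3 lies at 0.125 on the lymphocyte axis and -0.048 on the vertical one.

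The 13 genes of the fasting score had r with the family mean from -0.651 (Gabarapl1) to 0.443 (Pdk4), with a list median of -0.219. Along the score limma called 34 genes falling and 2 rising, against 31.4% and 21.5% of all features. The score itself had medians of -0.603, 0.659 and 0.188 in numbers 51 to 210, 211 to 310 and 311 to 362. Inside the ranges few genes were called, with 1 falling and 2 rising in 51 to 210 (background 8.43% and 8.84%) and 3 falling and 0 rising in 211 to 362 (7.95% and 6.95%). With a smooth curve of the number as a covariate, 5 fell and 0 rose (9.35% and 9.29%).

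The 15 genes of the lymphocyte score had r with the family mean from -0.205 (Blk) to 0.62 (Ighm, SD 0.132), with a list median of 0.165. The list genes of largest SD, Cd22 (1.4), Cd2 (0.93), Cd3g (0.786) and Ltb (0.775), had r of -0.0175, 0.0981, 0.0651 and 0.258. As a mean of z values, the score weighs all its genes alike. Along this score limma called 33 of the 44 genes rising and 4 falling, against 22.8% and 28.7% of all features. Rpl12 had a slope of 0.151 ± 0.0175 per SD, Rpl3 of 0.125 ± 0.0112, Rpl38 of 0.121 ± 0.0175 and Rpl37a of 0.113 ± 0.015 (limma adjusted p at most 7.05e-10). The relation was present in numbers 51 to 210, with 26 rising and 6 falling (background 32.9% and 29.8%), and in 211 to 362, with 29 rising and 2 falling (13.6% and 24%). Without numbers 331 to 350, the window with the highest median score (1.75), left out after its values were seen, 33 rose and 1 fell (32% and 28.6%). With the first array-wide component as a covariate 24 rose and 3 fell (18.4% and 29.9%). The part of lymphocyte RNA in the family's ratios was not tested.

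Rpl3 had a log2 ratio of -0.56 in the lowest mouse, -0.0239 at the median and 0.92 in the highest, number 324, and its window medians ran between -0.127 and 0.0928 up to number 330 but reached 0.356 in 331 to 350. Its slope on the lymphocyte score was 0.147 in numbers 211 to 362 (limma adjusted p = 3.89e-22), against 0.0433 in 51 to 210 (adjusted p = 0.109), and 0.0855 without numbers 331 to 350 (adjusted p = 4.46e-08). The difference between the ranges was not tested. It was also the 1 member that rose with the macrophage score of 16 genes, by 0.111 per SD (limma adjusted p = 3.26e-17), while 13 fell, against 12.5% rising and 25.9% falling among all features. Of its 7 probes 6 had a positive slope along the number, and their r with the other members ran from -0.309 to 0.404.

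Other tissue markers moved with the family mean too. Over 285 mice its r with the score was 0.506 for 3 fast fibre, 0.34 for 5 erythroid and 0.282 for 9 slow fibre genes. It was 0.255 for 5 white adipocyte genes, -0.426 for 11 matrix genes, -0.489 for 8 endothelial genes and -0.411 for 6 satellite cell genes. The large minus small difference over all 44 genes had an r of 0.363 with the white adipocyte score. Within some lists single genes differed in sign. Their r with the family mean ran from -0.0609 (Atp2a1) to 0.612 (Pvalb) for fast fibre and from -0.588 (Col6a3) to 0.245 (Dcn) for matrix genes. It ran from -0.529 (Flt1) to 0.437 (Cdh5) for endothelial and from -0.454 (Itga7) to 0.121 (Cdh15) for satellite cell genes. The part of these markers in the results along the number was not tested.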

How the data were processed

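The authors deposited 1 value per probe and array, read here as the log10 ratio of mouse over pool, a unit inferred from the values and not given in the sources used here. Array medians between -0.0222 and 0.0173 show that values were centred before they were deposited, by steps not given in the sources used here, and they are bounded at 2 and -2. All columns were used (0 left out). The depth behind a value is unknown, and the number of arrays limits the precision.

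Probes present on 228 or more of 285 arrays were kept (23510 of 23560). Missing values (0.0972%) were set to the probe mean, probes of a gene were averaged, and values were turned to log2. Symbols came from the platform annotation, updated by Entrez identifier. Each of the 285 numbers has 1 array in the series; 4 titles end in a mark (2) that the labels do not explain. Slopes were fitted with limma 3.58.1 in R 4.3.3 (lmFit, eBayes; code tested on simulated data) to all features, with Benjamini-Hochberg adjustment, called at 0.05. Scores were mean z values of listed genes. Descriptions used Python 3.11.15, numpy 2.4.6, pandas 2.3.3 and scipy 1.17.1.

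Members, gene lists and tests were chosen with earlier results of these data known. Named are the 10 largest rises and falls along the number, the 5 largest and smallest SDs, the 5 highest and lowest correlations with the other members, copies with their parents, the 10 most and least similar genes outside the family, and 3 genes each way per pathway list. Rpl7a and Rpl15 are named only for their start regions. Other members are named where range or covariate fits turn on them, after their values were seen. Alternatives were array scaling, the probe of largest SD, missing values left out, base 2, outlying arrays (12) left out, number ranges left out, array-wide components or a spline of number as covariates, ranks, and a minimum r.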

Additional observations from a re-analysis of the deposited data

How the results depend on the processing

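Array scaling and outlying arrays left out kept all 5 counts of called genes within 1.5 times and in direction. So did missing values left out and base 2, which could hardly do otherwise. Base 2 divides all values by a common factor and cannot change a call. The member probes had no missing values, so their calls could change only through what the fit shares with other features. Ranks, run only along the mouse number, gave 37 (67.3%). Percentages are the share of all features called in the same fit. Along the mouse number the count of 38 (64.1%) became 14 (12 rising; 18.4%) with 5 components as covariates, 23 (27.4%) with the minimum r, and 7 (5 rising; 28%) and 21 (12 rising; 42.3%) within numbers 51 to 210 and 211 to 362, limits chosen after seeing the data, as was leaving out numbers 331 to 350. Along the oxidative phosphorylation score 40 (78.2%) became 23 with 1 component (10 rising; 39.4%) and 16 with 5 (34.4%). Along the fasting score 36 (52.9%) became 23 outside numbers 51 to 90 and 271 to 310 (40.6%), 11 with 5 components (8 rising; 28.1%), 3 within 51 to 210 (2 rising; 17.3%), 3 within 211 to 362 (14.9%), 17 with the minimum r (16.9%) and 5 with the spline (18.6%). Along the lymphocyte score 37 (51.5%) became 13 with 5 components (20.3%) and 16 with the minimum r (10.3%). Along the macrophage score 14 (38.3%) became 6 with the probe of largest SD (37.4%), 4 outside the 2 runs of numbers (30.7%), 18 with 1 component (10 rising; 37.6%), 5 within 211 to 362 (28.2%), 1 with the minimum r (rising; 7.34%) and 9 with the spline (35.6%). The large minus small slope of -0.00323 became 0.0181 with 1 component, 0.00512 with the median over members and 0.0154 without pseudogenes, paralogs and binding proteins, a choice made after seeing the data. The median pairwise r lay between 0.14 and 0.476 under all alternatives run.

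Of the 44 slopes along the number, 28 turned sign within 51 to 210, 23 within 211 to 362, 27 with 5 components and 19 with 1. Among the 15 named slopes, the 10 steepest called falls and the 5 called rises, those that turned within 51 to 210 were Rps3 (0.0176), Rpl12 (0.00375), Rpl34 (0.0163), Rps7 (0.0294), Rps18 (0.0569), Rpl13 (0.00708), Rpl10l (0.0108) and Rps24-ps2 (-0.0367). Within 211 to 362 they were Rpl22 (0.117), Rpl12 (0.105), Rpl41 (0.000553), Rps7 (0.0454), Rps18 (0.108), Rpl13 (0.0655), Rps15 (0.0241) and Rps2-ps9 (-0.0469). With 5 components they were Rpl34 (0.00275), Rps18 (0.0237), Rpl13 (0.0503), Rps15 (0.011), Rpl10l (0.0243) and Rps2-ps9 (-0.00217), and with 1 component Rps2-ps9 (-0.0164) and Rps24-ps2 (-0.00268). Rps15 turned to 0.0842 with its probe of largest SD. The cause was not tested. No paired analysis was possible because the mice form 1 group. Signal over background is unknown here, and whether probes share targets with copies was not tested.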
